A study of Mus musculus with 18 samples.

Results

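Defactinib is a small-molecule inhibitor of focal adhesion kinase (FAK, gene Ptk2) and of its close relative PYK2 (gene Ptk2b). Its effect on the transcriptome of wild-type (WT) macrophages stimulated with lipopolysaccharide (LPS, the bacterial cell wall component sensed by the receptor TLR4) was taken from 6 of the 18 RNA-seq libraries of the study. In 3 libraries the cells had received defactinib at 3.5 μM for 1 h and then LPS at 100 ng/ml for 2 h, and in the other 3 the solvent DMSO took the place of defactinib. The cells were bone marrow cells of C57BL/6J mice grown for 8 days with the growth factor GM-CSF, and 1 dose and 1 time point were measured. The remaining groups, each of 3 libraries, were unstimulated WT cells and cells labelled IRF5 KO (deficient in the transcription factor IRF5) that were unstimulated, given DMSO and LPS, or given defactinib and LPS. Sample titles of the unstimulated groups name DMSO, whereas the column names of their counts read UT. They were matched by genotype, time and replicate number. Of the 50600 genes in the count table, 15663 passed the filter on low counts and were tested. The functions described are those of the 15391 tested genes outside lists of cytokine and chemokine genes and of interferon response genes.

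Between 45660365 and 51028045 read pairs were counted per WT LPS DMSO library and between 41079773 and 43883974 per WT LPS defactinib library. The culture was checked against markers of the cell types it could hold. Levels are given as CPM, the read pairs of a gene scaled to library size. Macrophage markers summed to 9187 to 9465 CPM with DMSO and 10736 to 15589 with defactinib. Of the 12, 2 were called higher (16.7%, 1 without defactinib replicate 3) and 4 lower (33.3%). Over all tested genes 10.4% were called higher and 18.6% lower. Dendritic cell markers, which GM-CSF cultures are known to carry, summed to 3706 to 3878 and 2828 to 3768 CPM (2 of the 10 tested higher, 1 without defactinib replicate 3, and 3 lower), and neutrophil markers to 284 to 358 and 334 to 466 CPM (none called, 2 lower without defactinib replicate 3). Mast cell and basophil markers stayed at or under 68.9 CPM in sum with Fcer1a, Mcpt4, Cma1 and Mrgprb1 at 0, T, B and NK cell markers at or under 3.42 CPM with Ncr1 and Gzma at 0, and stromal markers at or under 10.95 CPM. Of the members tested, 2 of 6 mast cell and basophil markers were lower, 1 of 4 T, B and NK cell markers higher and 3 of 5 stromal markers lower. Leaving out 1 library gave 1 to 2, 0 to 2 and 1 to 3. In such bulk libraries fewer cells of a type and less RNA per cell cannot be told apart.

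The libraries labelled IRF5 KO LPS DMSO did not form 1 group. The chi-square of the counts per gene, which is near 1 for sampling noise alone, was 2.33 between replicates 1 and 2 but 441 and 425 between these and replicate 3. It was 84.1 to 183 between the WT LPS defactinib libraries and at most 31.3 between the WT LPS DMSO libraries. Irf5 itself was counted at 434, 475 and 443 CPM in WT cells given DMSO and LPS and at 435, 431 and 345 CPM in those labelled IRF5 KO LPS DMSO, so its level did not check that label; which part of the gene the knockout removed was not examined. With defactinib Irf5 stood at 213, 234 and 379 CPM in WT cells (log2 fold change −0.71, SE 0.16, adjusted p = 0.00182), a smaller difference than the 2-fold set for a call. Of the drug's targets, Ptk2 was measured at 16.1, 15.3 and 18.9 CPM with DMSO and 28.3, 23.5 and 18.5 CPM with defactinib, which overlap. Ptk2b, which was more abundant, was lower in every defactinib library (162, 169 and 172 against 105, 101 and 122 CPM; log2 fold change −0.62, SE 0.09, adjusted p = 2.44e-05), again short of a call.

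As background, TLR4 signals through the adaptors MyD88 and TRIF to NF-κB, to the MAP kinases and to interferon regulatory factors. A first wave of genes, the immediate-early genes, is transcribed within minutes from promoters that already hold RNA polymerase, and their mRNAs are short-lived. Later waves need newly made proteins and remodelled chromatin. Many of the early products, such as the dual-specificity phosphatases and the inhibitors of NF-κB, switch the same pathways off again. FAK and PYK2 link integrins and other receptors to Src family kinases, the actin cytoskeleton and MAP kinases, and PYK2 is the more abundant of the pair in blood-derived cells.

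Genes were called when the adjusted p of edgeR's quasi-likelihood test was below 0.05 and the fold change above 2. In LPS-stimulated WT cells 4552 of the 15663 genes (29.1%) were called with defactinib, 1636 of them higher (10.4%) and 2916 lower (18.6%), and 9794 genes (62.5%) had libraries that did not overlap between the groups. Outside the cytokine and interferon lists 1630 genes (10.6%) were higher and 2760 (17.9%) lower. The genes that were lower were the more highly expressed. Their median level per length was 3.12 RPKM (CPM divided by the exonic length in kilobases) over the 6 libraries, against 0.661 RPKM for the genes that were higher and 3.82 RPKM for those called neither way. With no fold change threshold these medians were 4.75, 4.02 and 1.52 RPKM, so that genes that were higher then lay above those called neither way. Outside the same lists and restricted to abundant genes (mean log2 CPM from 3 upwards) whose libraries did not overlap, 308 were higher and 1388 lower. The split depended on scaling. When the libraries were scaled by their total alone, without the trimmed mean of M values (TMM), the median log2 fold change of all genes moved from 0.09 to 0.29, and 2350 genes were higher and 2426 lower (49.2% higher, against 35.9% with TMM). A correction for GC content and length gave 2251 higher and 2444 lower (47.9% higher), with a median of 0.20. Fold changes are therefore read against the median of all genes.

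**Figure D1:**
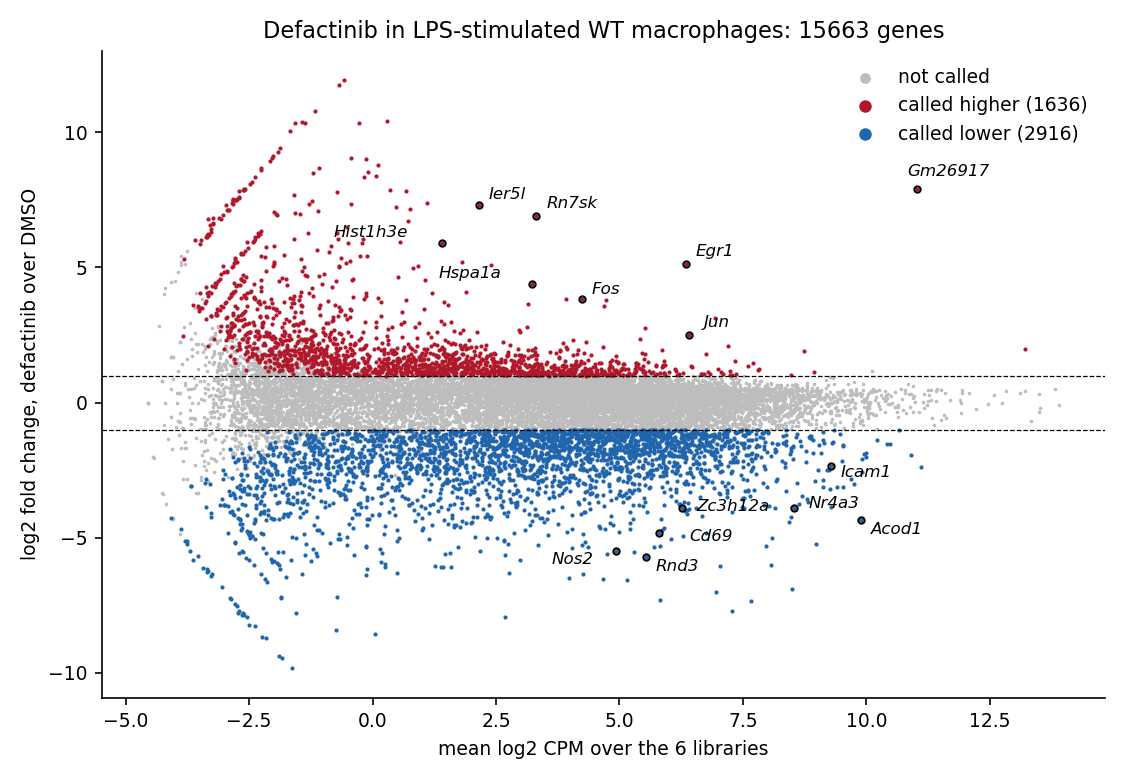
Log2 fold change with defactinib over DMSO in LPS-stimulated WT cells (vertical) against the mean log2 CPM over the 6 libraries (horizontal), 1 point per tested gene, with dashed lines at a 2-fold change either way. The 1636 genes called higher lie mostly at low abundance, with Gm26917, Egr1 and Jun as abundant exceptions, while the 2916 called lower reach up to Acod1 and Nr4a3 at high abundance.

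Several RNAs that carry no poly(A) tail were higher with defactinib, and others were not. Most mRNAs end in such a tail, but the mRNAs of replication-dependent histones, which package new DNA in dividing cells, end in a short conserved stem-loop, and the small nuclear RNAs of the spliceosome and the 7SK RNA end without a tail as well. Stretches of 4 replication-dependent histone transcripts and of the replacement histone gene H2afx, cut from the GENCODE M21 transcripts, show the stem-loop that was searched for, with its 16 bases in capitals and 5 bases on either side. The models run on beyond the loop, by 369 bases in Hist1h3e, 330 in Hist1h4i, 454 in Hist1h4c, 840 in Hist1h1c and 822 in H2afx.
Hist1h3e: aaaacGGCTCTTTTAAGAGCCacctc
Hist1h4i: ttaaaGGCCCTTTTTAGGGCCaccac
Hist1h4c: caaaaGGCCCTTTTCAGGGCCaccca
Hist1h1c: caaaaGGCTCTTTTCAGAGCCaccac
H2afx: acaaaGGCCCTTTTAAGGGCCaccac

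Histone H3 gene Hist1h3e (chr13:23561534-23562369, mm10) was measured at 0.394, 0.307 and 0.280 CPM with DMSO and at 19.6, 26.3 and 14.1 CPM with defactinib (log2 fold change 5.92, SE 0.97, adjusted p = 0.000128). Histone H4 gene Hist1h4i (chr13:22040636-22041362) stood at 2.88, 3.35 and 3.84 CPM with DMSO and at 22.3, 26.8 and 20.01 CPM with defactinib (log2 fold change 2.78, SE 0.44, adjusted p = 8.73e-05). Linker histone gene Hist1h1c rose from 35.6, 28.9 and 37.5 CPM to 70.8, 96.3 and 90.4 CPM (log2 fold change 1.34). Every defactinib library lay above every DMSO library for these 3 genes. Of the 68 genes named Hist that the table lists, 55 were tested, and 48 of these were higher and none lower, with 1 lower without defactinib replicate 2 (median log2 fold change 4.07, range −0.75 to 8.79). They comprised all 5 tested linker histone genes, 10 of 14 H2A, 10 of 13 H2B, 10 of 10 H3 and 13 of 13 H4 genes. Of the 55, 40 averaged under 10 pairs in the DMSO libraries, so that many passed the filter only through libraries in which they were high. Among the 15 with at least 10 pairs there, 11 were higher. The 13 other histone genes, whose mRNAs are for the most part polyadenylated and made outside S phase, gave no call (median 0.01): H3f3b was at 819, 758 and 814 CPM with DMSO and 502, 448 and 511 CPM with defactinib, a difference under 2-fold, and H2afz at 22.9 to 24.8 and 26.8 to 33.7 CPM. The stem-loop was found in 40 of the 55 Hist genes, of which 35 were higher, and 13 of the 15 without it were higher too. It was also found in 17 tested genes that code for no histone, of which 3 were higher and 3 lower. The Hist genes are near-identical copies of each other, and only uniquely mapped pairs were counted, so pairs that map to several copies are missing from these counts. The division by name and by stem-loop was made after the values were seen.

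Small nuclear RNAs (snRNAs) pair with pre-mRNA at splice sites or hold the spliceosome together. Rnu1a1 encodes U1, which recognises the 5′ splice site, and Rnu11 encodes U11, its counterpart in the minor spliceosome. Both are printed from the GENCODE M21 transcripts (Rnu1a1, chr11:87422867-87423030, plus strand; Rnu11, chr4:132270080-132270213, minus strand; mm10), and the capitals in Rnu1a1 mark positions 3 to 11, the bases that pair with the 5′ splice site.
Rnu1a1: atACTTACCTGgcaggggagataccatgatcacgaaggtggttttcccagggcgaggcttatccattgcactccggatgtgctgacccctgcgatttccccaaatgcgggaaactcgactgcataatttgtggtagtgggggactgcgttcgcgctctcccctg
Rnu11: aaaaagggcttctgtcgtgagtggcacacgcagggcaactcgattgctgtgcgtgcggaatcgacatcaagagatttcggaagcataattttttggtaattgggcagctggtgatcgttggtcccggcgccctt

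Rnu1a1 was counted in 3, 4 and 12 pairs with DMSO and in 1304, 1385 and 646 pairs with defactinib (log2 fold change 7.39, SE 1.15, adjusted p = 8.7e-05). Rnu11 had no pair in any DMSO library and 465, 391 and 425 pairs with defactinib, at least 135-fold more when 3 pairs per library are taken as the floor. Rnu12 gave 2, 0 and 0 against 463, 431 and 343 pairs, Rnu2-10 gave 0, 2 and 1 against 323, 328 and 117, and Rnu5g gave 10, 6 and 5 against 545, 478 and 297. These 5 genes were chosen after their values were seen, and all 5 had so few pairs with DMSO that they passed the filter only through other libraries. Over all 1383 snRNA genes of the table, 1195 had no pair in the 6 libraries, and the sum was 310, 362 and 261 pairs with DMSO and 10537, 10346 and 5939 pairs with defactinib (at most 0.000793% and at least 0.0145% of the counted pairs). Of the 37 that were tested, 30 were called higher and 4 lower, but 14 were at 0 in every DMSO library and had entered only through other libraries. Of the 6 with at least 10 pairs on average with DMSO, 3 were higher and 2 lower.

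Rn7sk, the 7SK RNA that holds the elongation factor P-TEFb inactive, was the leading rise outside the excluded lists by the rule for leading genes. It was measured at 1.07, 0.921 and 0.737 CPM with DMSO and at 92.5, 150 and 85.8 CPM with defactinib (log2 fold change 6.90, SE 1.19, adjusted p = 0.000207). Small nucleolar RNAs (snoRNAs), which guide the processing and modification of other RNAs, moved both ways, with 10 higher (25.6%) and 9 lower (23.1%) of 39 tested and a median of 0.06. The snoRNAs called higher had too few pairs with DMSO, and those called lower too few with defactinib, to pass the filter through those libraries alone. Chosen after their values were seen, those that rose included Snord118 (U8, which guides ribosomal RNA processing), with 1, 0 and 0 against 760, 506 and 487 pairs, and Snord13, with no pair against 182, 138 and 114 pairs (at least 45.5-fold more). Snora73b and Gm25777, also snoRNAs, changed by −4.81 and −4.32. Rpph1, the RNA of ribonuclease P, rose by a log2 fold change of 3.20, while Rmrp, the RNA of the related ribonuclease MRP, overlapped between the groups (1.34, adjusted p = 0.198). Gm26917 (chr17:39843013-39846341, mm10) rose as well and was at 132, 142 and 140 CPM with DMSO and 22252, 41939 and 33727 CPM with defactinib (log2 fold change 7.88, SE 1.27, adjusted p = 0.000114). It took 0.0112% to 0.0122% of counted pairs with DMSO and 2.18% to 4.15% with defactinib. Its neighbour Gm42418 (chr17:39846958-39848788) rose from 4838, 4043 and 5407 CPM to 16819, 18220 and 22031 CPM (log2 fold change 2.00, SE 0.66, adjusted p = 0.0180), a call lost without DMSO replicate 2. Both models lie over a copy of the ribosomal RNA precursor, so pairs on them may stem from ribosomal RNA. Of the long nuclear RNAs that do carry tails or stable 3′ ends, Malat1 rose (176, 267 and 224 against 713, 797 and 985 CPM; log2 fold change 1.90) and Neat1, the scaffold of paraspeckles, fell (427, 649 and 319 against 171, 168 and 156 CPM; −1.497).

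These RNAs did not follow the defactinib label across the series. Summed over the tested Hist genes, the WT LPS DMSO libraries held 75.3, 69.5 and 83.6 CPM, the WT LPS defactinib libraries 341, 441 and 322 CPM and the unstimulated WT libraries 88.9, 94.5 and 101 CPM. The libraries labelled IRF5 KO LPS DMSO held 275, 275 and 78.8 CPM, so that replicates 1 and 2, labelled as given no defactinib, lay near the 238 to 272 CPM of the libraries labelled IRF5 KO LPS defactinib. Gm26917 showed the same division, with 26817, 26679 and 113 CPM in the libraries labelled IRF5 KO LPS DMSO, as did Rn7sk with 65.3, 61.4 and 0.607 CPM. The protocols used here do not say how mRNA was selected before sequencing, and neither that step nor RNA quality was tested as a part of these differences. The mitochondrial share of counted pairs was 0.671% to 0.913% with DMSO and 1.05% to 1.26% with defactinib.

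**Figure D2:**
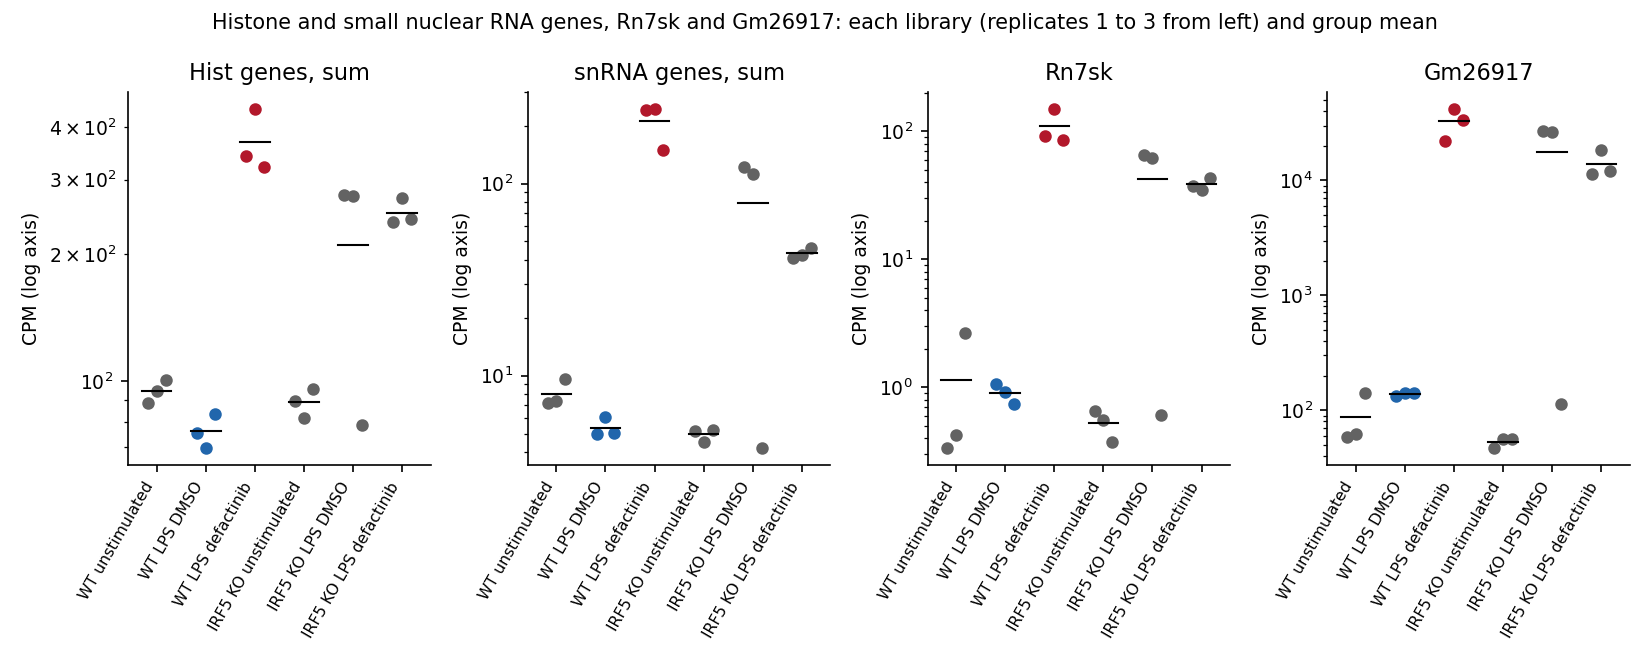
Summed CPM of the tested Hist genes, summed CPM of snRNA genes, and CPM of Rn7sk and Gm26917 in each of the 18 libraries on log axes, with replicates 1 to 3 from left to right in each group and the bar at the group mean. In all 4 panels the WT LPS defactinib libraries lie above the WT LPS DMSO libraries, and replicates 1 and 2 labelled IRF5 KO LPS DMSO lie far above replicate 3 of that label.

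The immediate-early transcription factors and their companions moved in both directions. Of 33 tested members 11 were higher (33.3%, against 10.4% of all genes) and 13 lower (39.4%, against 18.6%). Fos, a subunit of the AP-1 factor, was measured at 5.10, 4.17 and 5.92 CPM with DMSO and 92.6, 69.9 and 53.9 CPM with defactinib (log2 fold change 3.83, SE 0.66, adjusted p = 0.000209). Egr1, a zinc finger activator of growth responses, stood at 16.9, 10.7 and 14.2 CPM against 538, 539 and 385 CPM (log2 fold change 5.13, SE 1.01, adjusted p = 0.000574). For both, the defactinib libraries lay wholly above the DMSO libraries. Jun rose from 40.3, 33.3 and 38.1 CPM to 256, 251 and 118 CPM, and Zfp36, which encodes tristetraprolin, a protein that destroys mRNAs of inflammation, from 79.6, 68.7 and 67.9 CPM to 341, 332 and 244 CPM. Ier5l showed the largest rise of the list (0.348, 0.358 and 0.381 against 54.0, 99.8 and 20.9 CPM; log2 fold change 7.32), and Egr4, Fosb and Ier2 rose by 5.91, 2.93 and 2.76. The falls were of other members. The orphan nuclear receptor gene Nr4a3 dropped from 1362, 1465 and 1459 CPM to 101, 75.3 and 115 CPM (log2 fold change −3.88, SE 0.39, adjusted p = 1.43e-06), and Atf3, a repressor of inflammatory genes, from 755, 626 and 762 CPM to 195, 116 and 147 CPM (−2.23). Btg1, Fosl1 and Mafk changed by −2.86, −2.49 and −2.44. In unstimulated WT cells Fos and Egr1 were at 5.25 ± 0.37 and 23.7 ± 4.1 CPM (SD, n = 3). That of Fos was near its DMSO level after 2 h of LPS, and the mean of Egr1 was above its DMSO libraries. In the libraries labelled IRF5 KO LPS DMSO, Egr1 was at 916, 885 and 6.99 CPM and Fos at 64.3, 61.6 and 4.01 CPM, the same division between replicates as for the RNAs without tails.

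Feedback regulators of the MAP kinases were lower in 15 of 19 tested genes (78.9%, against 18.6% of all genes), with a median log2 fold change of −1.91, and 1 was higher. This list had the highest share lower of those examined. The phosphatase gene Dusp6, which switches off ERK, was measured at 10.9, 8.85 and 10.2 CPM with DMSO and 0.884, 0.481 and 0.462 CPM with defactinib (log2 fold change −4.02, SE 0.85, adjusted p = 0.00101), though DESeq2 in place of edgeR did not call it. Spred1, an inhibitor of Ras, was the most abundant per length and fell from 394, 376 and 414 CPM to 113, 84.5 and 129 CPM (−1.86). Dusp14, Spry1 and Dusp5 changed by −3.63, −2.98 and −2.39. Spred3, a relative of Spred1, was the 1 member that rose (2.97, 3.74 and 2.54 against 11.7, 9.41 and 7.91 CPM; 1.65). Leaving out 1 of the 6 libraries gave 13 to 15 lower, and 2 were higher without defactinib replicate 3.

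Of 27 NF-κB pathway genes 16 were lower (59.3%) and none higher, with a median of −1.27. Bcl3, an atypical inhibitor that also acts as a coactivator, fell from 83.6, 101 and 75.4 CPM to 4.26, 7.31 and 8.84 CPM (log2 fold change −3.67, SE 0.41, adjusted p = 3.67e-06). Nfkbie, which encodes the inhibitor IκBε, fell from 410, 446 and 389 CPM to 34.5, 33.2 and 56.2 CPM (−3.33). The subunit genes Rela, Rel and Nfkb2 changed by −1.66, −1.51 and −1.15, and the adaptors Traf2 and Traf1 by −2.65 and −1.64. Nfkbia, the member with the highest level per length, was lower in every defactinib library but under 2-fold (895, 868 and 839 against 548, 454 and 456 CPM; −0.84, SE 0.22, adjusted p = 0.00425). Toll-like receptor pathway genes were lower in 16 of 32 tested (50%) and higher in 1, with a median of −1.001. Tlr9, the receptor for bacterial DNA, stood at 19.1, 26.8 and 23.1 CPM with DMSO and 1.05, 0.986 and 1.44 CPM with defactinib (−4.31, SE 0.89, adjusted p = 0.000816). Cd14, the co-receptor that hands LPS to TLR4, fell from 467, 372 and 326 CPM to 109, 63.9 and 134 CPM (−1.93), and Tlr2, Ticam1 and Tlr4 changed by −2.92, −2.89 and −1.26. Sigirr, an inhibitory receptor of the family, was the member that rose (1.58, 1.07 and 1.19 against 5.19, 4.55 and 6.29 CPM; 2.05). Scaling by the library total or for GC content and length left 14 lower in each of these lists.

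Transcription factors of the KLF, C/EBP and macrophage lineage groups were lower in 23 of 43 (53.5%) and higher in 4, with a median of −1.14. Id3, an inhibitor of helix-loop-helix factors that was chosen after its values were seen, rose from 0.0928, 0.0767 and 0.0508 CPM to 4.35, 6.30 and 3.03 CPM (5.90), back to the 5.49 ± 0.54 CPM (SD, n = 3) of unstimulated cells. Its relative Id2, by contrast, fell from 739, 608 and 737 CPM to 203, 118 and 234 CPM (−1.91). Klf3, a repressor, fell from 117, 123 and 126 CPM to 5.98, 6.21 and 7.78 CPM (−4.19, not called by DESeq2), and Klf5, Klf11 and Etv3 changed by −5.28, −3.36 and −3.13. Of the marker genes of dendritic cells, Irf4 was at 480, 410 and 456 CPM with DMSO and 27.0, 15.2 and 30.6 CPM with defactinib (−4.21, SE 0.48, adjusted p = 4.79e-06), while Dpp4 rose from 10.9, 12.996 and 10.01 CPM to 30.8, 22.7 and 37.4 CPM (1.42). The summed dendritic cell markers given above moved less than either.

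Of the cyclin D, CDK inhibitor and Myc family list 10 of 27 were lower (37.0%) and 1 higher, with 13 members above 0 and 14 below. The median of −0.27 became −0.07 when scaled by the library total and 0.06 with the GC and length correction, where 4 and 5 were higher. Without defactinib replicate 1 or DMSO replicate 3 the count higher was 3, and without replicate 2 of either group it was 2. Cdkn1a, which encodes the CDK inhibitor p21, fell from 2302, 2412 and 2468 CPM to 337, 311 and 560 CPM (log2 fold change −2.57, SE 0.21, adjusted p = 1.24e-07), and Cdkn1b (p27) changed by −3.66. Ccng2, an unconventional cyclin of resting cells, fell from 258, 272 and 245 CPM to 14.8, 11.5 and 12.6 CPM (−4.32, SE 0.11, adjusted p = 4.24e-13). Ccno rose from 0.997, 0.793 and 0.890 CPM to 17.6, 17.8 and 10.5 CPM (4.09). Genes of DNA replication and mitosis gave shares near the background, with 8 of 47 lower (17.02%) and 3 higher (6.38%). Scaling by the library total gave 5 lower, the GC and length correction 5 higher, and leaving out defactinib replicate 2 only 1 higher. E2f8, a repressor of S phase genes, fell (68.8, 73.6 and 62.7 against 6.72, 5.77 and 7.40 CPM; −3.37), and Pcna, the sliding clamp of replication and the most abundant of the list per length, stood at 264, 254 and 282 against 177, 190 and 127 CPM, under 2-fold lower. E2f2, an E2F factor of S phase entry, rose from 3.08, 3.56 and 4.32 CPM to 11.7, 12.6 and 6.76 CPM (adjusted p = 0.000215).

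Genes named Zfp, Zscan or Zkscan with a number, most of which encode DNA-binding zinc finger repressors, made up the longest list. Of 354 tested 170 were lower (48.0%) and 19 higher (5.37%), with a median log2 fold change of −1.11, and 281 of the 354 were below 0. Zfp324 fell from 16.3, 18.4 and 13.8 CPM to 0.326, 0.577 and 1.18 CPM (−4.54), and Zfp651 rose from 0.441, 0.333 and 0.458 CPM to 9.98, 10.2 and 8.63 CPM (4.54, SE 0.82, adjusted p = 0.000307). Scaling by the library total left 150 lower and the correction for GC content and length 145. Chromatin modifiers were lower in 28 of 101 (27.7%) and higher in 12 (11.9%), although their median of −0.10 turned to 0.10 when scaled by the library total (20 lower, 17 higher) and to 0.07 with the GC and length correction (17 lower, 18 higher). Arid5a, which also binds and stabilises mRNAs of inflammation, fell (71.7, 72.6 and 59.1 against 8.58, 7.60 and 6.99 CPM; −3.13). Kmt2c, a histone H3 methyltransferase of enhancers, rose (20.8, 23.5 and 27.1 against 99.3, 56.8 and 97.3 CPM; 1.83).

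Genes of P-TEFb, its 7SK complex and the elongation machinery were lower in 12 of 33 (36.4%) and none was higher, with a median of −0.48. Hexim1, the protein through which 7SK inhibits P-TEFb, fell from 35.7, 33.1 and 35.0 CPM to 6.72, 7.92 and 7.19 CPM (log2 fold change −2.25, SE 0.51, adjusted p = 0.00171), a call that DESeq2 did not make. Brd2, a bromodomain reader of acetylated histones, fell from 774, 754 and 733 CPM to 203, 149 and 181 CPM (−2.08, SE 0.11, adjusted p = 1.32e-09). Mepce, which caps 7SK, changed by −2.06. Only 6 of the 33 were lower when scaled by the library total and 5 with the GC and length correction. Genes of mRNA decay and of microRNA processing were lower in 11 of 40 (27.5%) and higher in 4, with a median of −0.41. With the GC and length correction 7 were lower and the median was −0.07, and with the library total 8 were lower. The endonuclease gene Zc3h12a (Regnase-1), which degrades inflammatory mRNAs, fell from 296, 283 and 311 CPM to 20.5, 16.7 and 22.5 CPM (−3.89, SE 0.29, adjusted p = 7.72e-08). Dcp2 and Dcp1a, which remove the mRNA cap, changed by −2.56 and −2.196. Tnrc6b, a partner of Argonaute, rose from 7.14, 6.68 and 7.60 CPM to 29.6, 19.8 and 31.9 CPM (1.92). Splicing factors were lower in 17 of 107 (15.9%), near the background, with 1 higher (2 without defactinib replicate 1 or DMSO replicate 2), and their median of −0.19 turned to 0.01 with 12 lower when scaled by the library total, and to 0.11 with 7 lower and 4 higher with the GC and length correction.

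**Figure D3:**
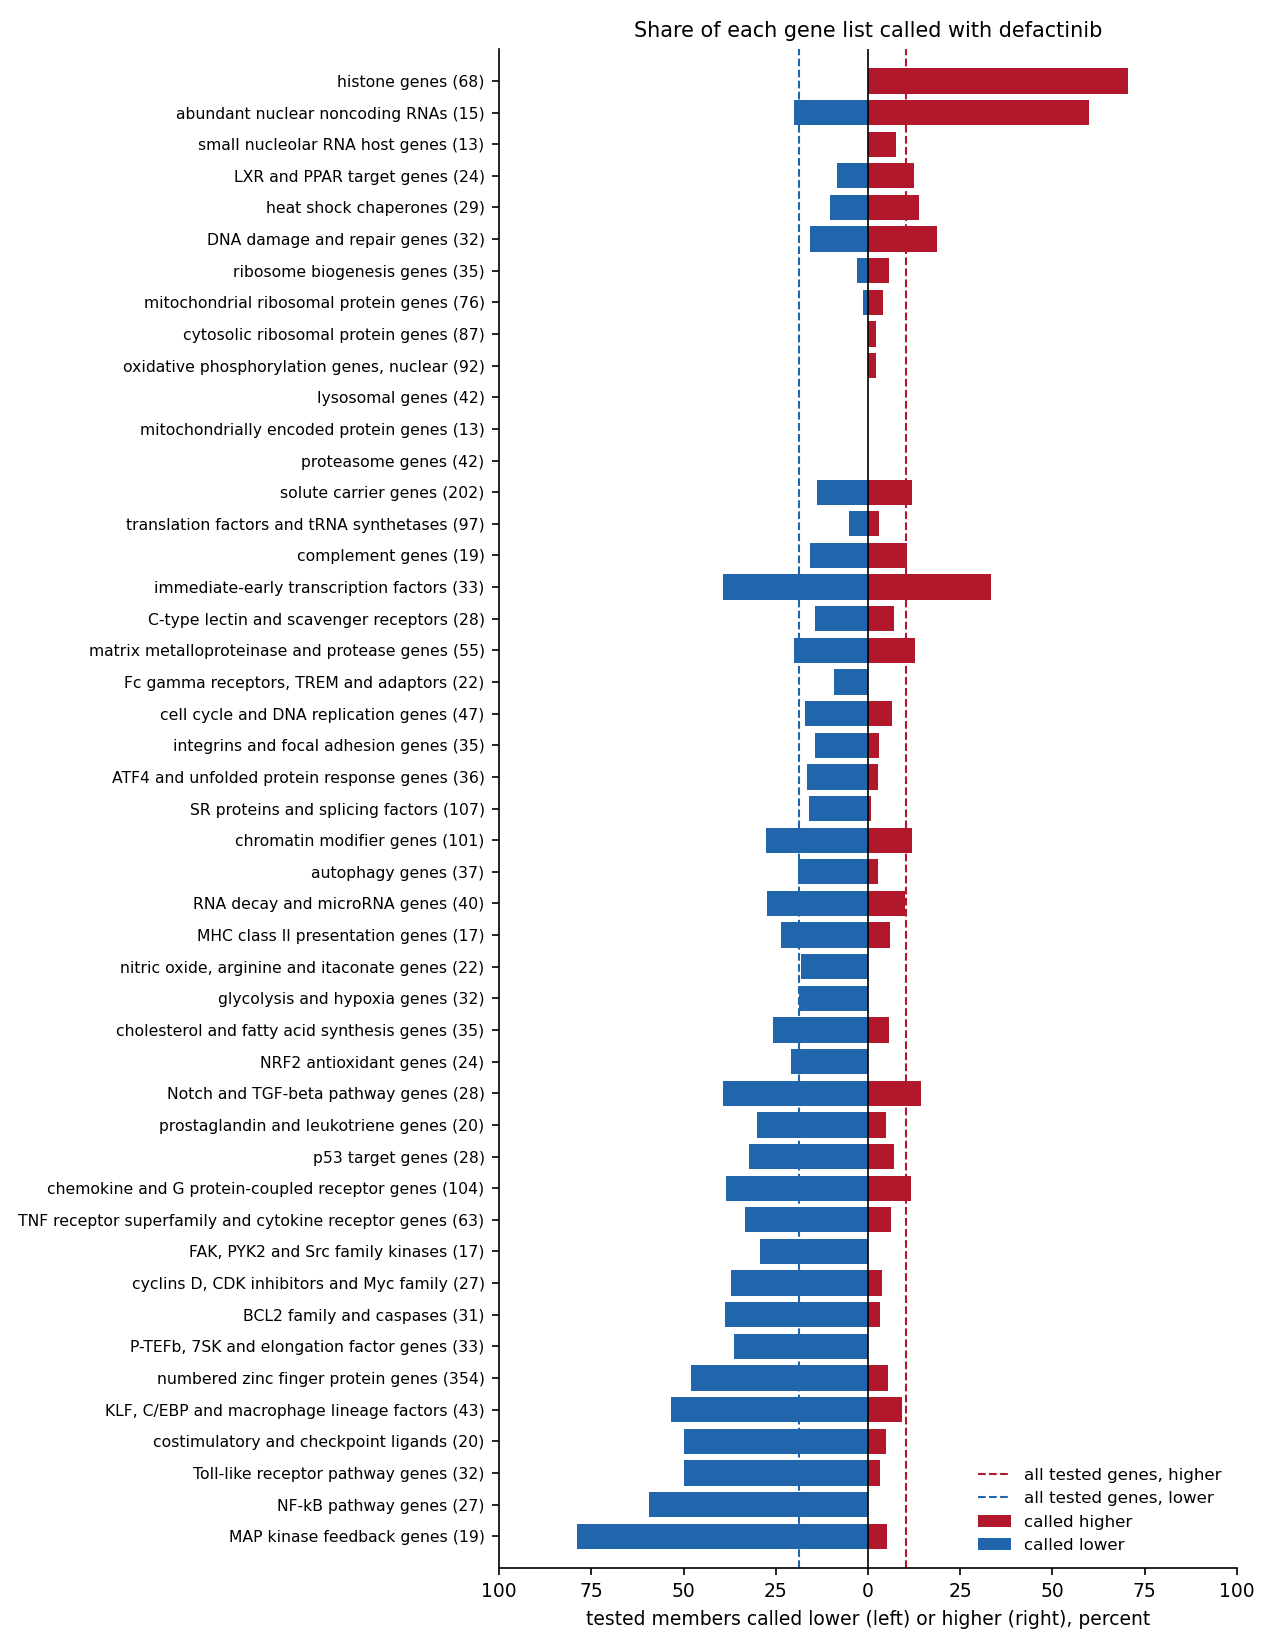
Percent of tested members called lower (bars to the left) and higher (bars to the right) for each gene list, with the number tested in brackets and dashed lines at 18.6% lower and 10.4% higher over all genes. MAP kinase feedback genes reach 78.9% lower and histone genes 70.6% higher, while lysosomal, proteasome and mitochondrially encoded genes have no call.

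The lists that make and degrade protein and supply energy held few calls. Of 87 cytosolic ribosomal protein genes 2 were higher (1 without replicate 1 or 2 of either group) and none lower, with a median log2 fold change of 0.44 against 0.09 over all genes (0.65 against 0.29 when scaled by the library total). Rplp1, the most abundant per length, stood at 555, 533 and 542 CPM with DMSO and 650, 937 and 562 CPM with defactinib. Of 76 mitochondrial ribosomal protein genes 3 were higher and 1 lower, and no gene of this list was higher without defactinib replicate 2, while 6 were higher and none lower under each of the 2 other scalings. Of 92 nuclear genes of oxidative phosphorylation 2 were higher and none lower (median 0.31), and of the 13 protein genes of the mitochondrial genome none was called, with mt-Co1 at 3761, 4465 and 3326 against 5586, 4585 and 4785 CPM. Proteasome subunits gave no call among 42 (median 0.02, range −0.62 to 0.64) and lysosomal genes none among 42, or 1 higher without defactinib replicate 1 or DMSO replicate 3 (median 0.28, range −0.65 to 0.96). Psap, a lysosomal activator protein gene, was at 12264, 11805 and 12300 CPM with DMSO and 17478, 18333 and 15762 CPM with defactinib, higher in every library but under 2-fold. Among 97 translation factors and tRNA synthetases 3 were higher and 5 lower. The count higher was 5 without defactinib replicate 3 and 10 or 12 under the 2 other scalings, with 2 lower under the GC and length correction. Within this list Eif1a, an initiation factor gene, fell from 230, 242 and 244 CPM to 31.7, 22.5 and 34.9 CPM (−3.01, SE 0.29, adjusted p = 8.33e-07).

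**Figure D4:**
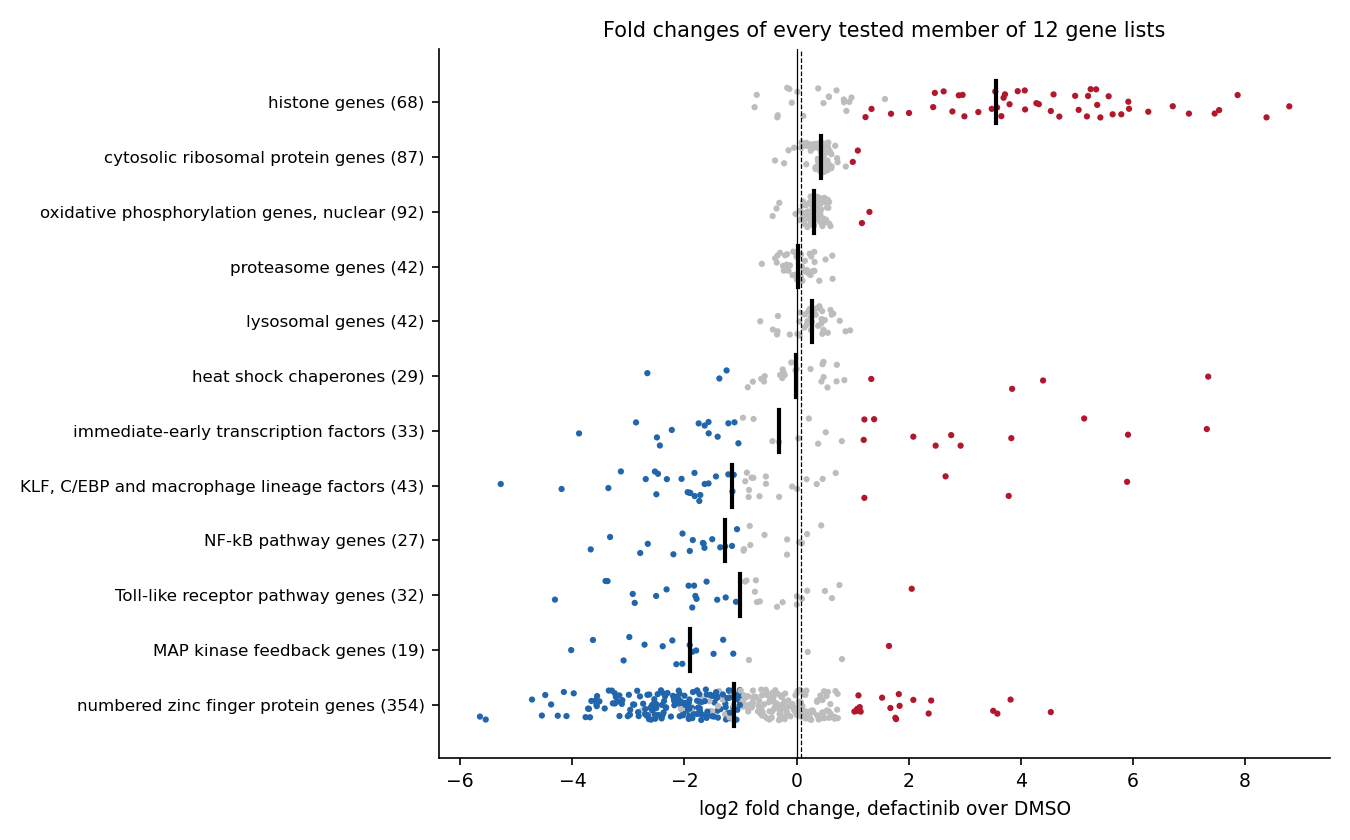
Log2 fold change with defactinib of every tested member of 12 gene lists (red, called higher; blue, called lower; grey, not called), with a black bar at each list's median, a solid line at 0 and a dashed line at the median of all genes, 0.09. The histone genes split into a group near 0 and a group spread to 8.79, the immediate-early and heat shock genes spread both ways, and the ribosomal, proteasome and lysosomal genes stay close to the dashed line.

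Stress response lists moved through few members. Of 29 heat shock chaperones 4 were higher (13.8%) and 3 lower (10.3%). Hspa1a (chr17:34969190-34972156, mm10) was measured at 2.20, 1.97 and 2.01 CPM with DMSO and 49.7, 52.0 and 28.7 CPM with defactinib (log2 fold change 4.398, SE 0.80, adjusted p = 0.000316). Its near-identical copy Hspa1b was at 4.36, 3.74 and 3.99 against 66.1, 64.6 and 43.1 CPM (3.85), and pairs that map to both copies were not counted. The small chaperone gene Hspb1, chosen after its values were seen, was at 0, 0.102 and 0.0508 CPM against 8.88, 14.4 and 2.16 CPM (7.34, SE 1.33, adjusted p = 0.000303). Hspb1 had so few pairs with DMSO that it passed the filter only through other libraries. Hsph1 rose by 1.33. Constitutive Hsp90ab1, the most abundant of the list per length, stood at 2172, 2109 and 2186 against 3120, 2850 and 2944 CPM, under 2-fold higher. Dnajb4, a co-chaperone, fell from 38.3, 36.6 and 57.4 CPM to 11.02, 4.93 and 4.91 CPM (−2.66). In the libraries labelled IRF5 KO LPS DMSO, Hspa1a was at 75.3, 73.7 and 2.45 CPM.

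Heat shock factor binds repeats of GAA and its complement TTC, and the 8-letter motif GAANNTTC, which reads the same on both strands, was searched from 250 bases before to 50 bases after the RefSeq start. It was found in 7.86% of all 32851 promoter windows of that length, and on this list in 4 of 4 genes that were higher, 1 of 3 that were lower and 5 of 16 called neither way. The promoters of Hspb1 (chr5:135887669-135887968, plus strand) and Hspa1a (chr17:34972107-34972406, minus strand) are printed from RefSeq (GRCm38.p6) with the matches in capitals, which begin 117 and 97 bases before the start of Hspb1 and 104 before that of Hspa1a.
Hspb1: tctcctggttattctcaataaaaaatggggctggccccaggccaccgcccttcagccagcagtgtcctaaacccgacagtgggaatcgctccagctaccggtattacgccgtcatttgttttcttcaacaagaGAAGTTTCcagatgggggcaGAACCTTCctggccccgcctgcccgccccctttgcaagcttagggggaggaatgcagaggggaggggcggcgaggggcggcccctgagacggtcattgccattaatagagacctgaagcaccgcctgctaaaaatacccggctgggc
Hspa1a: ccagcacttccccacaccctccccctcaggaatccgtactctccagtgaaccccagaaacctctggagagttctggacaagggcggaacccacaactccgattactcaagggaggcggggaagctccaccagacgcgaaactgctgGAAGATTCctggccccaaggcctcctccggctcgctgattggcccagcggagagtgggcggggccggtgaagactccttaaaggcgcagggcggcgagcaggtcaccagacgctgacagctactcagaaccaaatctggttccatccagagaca

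Among all genes called higher, by contrast, 5.06% of promoter windows held the heat shock motif, against 6.07% for genes called lower and 5.90% for those called neither way. The NF-κB site, searched by name on both strands, was held by 9.60% of windows of genes called lower, 6.96% of those called higher, 8.14% of those called neither way and 6.93% of all windows. Among NF-κB pathway genes it was found in 8 of the 16 that were lower and 4 of 7 called neither way. That of Nfkbie (chr17:45555450-45555749, plus strand, RefSeq GRCm38.p6), 106 bases before the start, is shown in capitals.
Nfkbie: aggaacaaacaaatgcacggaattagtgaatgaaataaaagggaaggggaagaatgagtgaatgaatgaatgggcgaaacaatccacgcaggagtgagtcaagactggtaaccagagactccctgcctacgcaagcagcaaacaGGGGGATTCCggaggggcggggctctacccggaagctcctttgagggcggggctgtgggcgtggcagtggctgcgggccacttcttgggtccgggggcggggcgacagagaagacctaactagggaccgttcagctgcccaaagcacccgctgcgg

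The ETS motif CCGGAAGT stood in 4.91% of windows of genes called higher, 7.15% of those called lower and 8.25% of those called neither way, and the cyclic AMP element TGACGTCA in 1.34%, 2.90% and 3.03%. Serum response factor's CArG box, searched by name, was held by 1.03% of windows of genes called higher. The shares were 1.71% for genes called lower, 1.21% for those called neither way and 1.63% of all windows. Of immediate-early genes with a promoter in the table, it was found in 1 of 9 that were higher (Zfp36). It was found in 2 of 8 called neither way (Egr2 and Srf) and in 0 of 9 that were lower. Sites farther upstream than the searched window were not examined, so these counts do not show that a gene lacks one. A match is a description of letters, and Hist genes were not matched to a promoter.

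The other stress lists differed in their shares. Ddit4, a brake on mTORC1 induced by stress, rose from 0.580, 0.537 and 0.686 CPM to 7.81, 7.72 and 4.65 CPM (log2 fold change 3.48, SE 0.41, adjusted p = 5.71e-06) and was the 1 member of 36 ATF4 and unfolded protein response genes to be higher, beside 6 lower (16.7%), with 2 higher without defactinib replicate 3. Nupr1 fell from 61.1, 61.2 and 61.3 CPM to 5.19, 7.29 and 16.3 CPM (−2.68). Of 24 NRF2 antioxidant genes 5 were lower (20.8%) and none higher, with Nfe2l2, which encodes NRF2, at 298, 277 and 293 against 79.6, 51.5 and 50.3 CPM (−2.26, SE 0.14, adjusted p = 1.02e-08). The ferritin gene Fth1, most abundant on that list per length, overlapped between the groups. Of 28 p53 targets 9 were lower (32.1%), Ccng2 and Cdkn1a among them, and 2 higher. Of 32 DNA repair genes 6 were higher (18.8%) and 5 lower, and scaling by the library total gave 10 higher and 3 lower. Ung, which removes uracil from DNA, rose from 0.974, 1.38 and 1.601 CPM to 4.19, 6.01 and 3.26 CPM (1.77), and Brca1 fell from 11.7, 14.5 and 14.7 CPM to 5.49, 4.45 and 4.24 CPM (−1.53).

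BCL2 family and caspase genes were lower in 12 of 31 (38.7%) and higher in 1, with a median of −0.60, and 8 were lower when scaled by the library total. The fallers included genes that protect from cell death and genes that promote it. Bcl2l1, which encodes the survival protein BCL-XL, fell from 607, 721 and 739 CPM to 46.9, 38.6 and 57.2 CPM (log2 fold change −3.86, SE 0.29, adjusted p = 7.02e-08), and Mcl1, also a survival gene, from 517, 503 and 534 CPM to 161, 130 and 187 CPM (−1.70). Bcl2l11 (BIM) and Apaf1, which promote death, changed by −2.49 and −2.40. Bcl2a1d fell from 939, 893 and 962 CPM to 451, 398 and 528 CPM (−1.02), a call lost without any 1 of 4 of the 6 libraries. Pairs that also map to its copies Bcl2a1a or Bcl2a1b were not counted. Casp2 rose from 6.38, 6.11 and 5.44 CPM to 13.8, 10.1 and 12.3 CPM (1.01), a call lost without defactinib replicate 1 or DMSO replicate 3.

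Genes of the drug's own pathway gave a mixed picture. Among FAK, PYK2 and Src family kinases 5 of 17 were lower (29.4%) and none higher. Src fell from 177, 156 and 133 CPM to 16.3, 12.1 and 43.5 CPM (log2 fold change −2.70, SE 0.55, adjusted p = 0.000736). Integrin and focal adhesion genes were lower in 5 of 35 (14.3%), below the share of all genes, but some of the falls were large. Itgb8, the integrin subunit that activates TGF-β, fell from 131, 137 and 107 CPM to 4.19, 1.30 and 4.32 CPM (−5.26, SE 0.66, adjusted p = 1.24e-05). Itgb2, the β chain of the leukocyte integrins, was at 2139, 1928 and 2183 against 2635, 2480 and 2611 CPM, under 2-fold higher. Rnd3, whose product relaxes the actin cytoskeleton, had the largest fall among the leading genes, from 342, 342 and 362 CPM to 9.9997, 4.93 and 4.78 CPM (−5.73, SE 0.51, adjusted p = 4.67e-07). Rnd1 changed by −4.84 and Rhob by −3.54, whereas Tmsb4x, which binds monomeric actin, stood at 8222, 7224 and 7842 against 10664, 10148 and 9342 CPM.

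Notch and TGF-β pathway genes were lower in 11 of 28 (39.3%) and higher in 4, and leaving out 1 library of the 6 kept the count lower at 11. Notch ligand genes were among the falls. Dll1 was at 16.7, 18.6 and 13.2 CPM with DMSO and at 0, 0.120 and 0 CPM with defactinib (log2 fold change −8.55, SE 1.33, adjusted p = 8.31e-05), and Dll4 at 6.17, 10.2 and 6.28 against 0.0233, 0.192 and 0.0514 CPM (−6.36, SE 1.14, adjusted p = 0.000277). In unstimulated WT cells both were low as well (0.17 ± 0.09 and 0.10 ± 0.06 CPM, SD, n = 3). Smad1, a signal transducer of BMPs, fell from 28.4, 24.2 and 25.4 CPM to 2.44, 2.41 and 2.26 CPM (−3.45), and Mfng, a glycosyltransferase that modifies Notch, rose from 1.55, 0.870 and 1.35 CPM to 3.44, 3.75 and 2.54 CPM (1.37).

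Costimulatory and checkpoint ligands, by which macrophages activate or restrain T cells, were lower in 10 of 20 (50%) and higher in 1, with a median of −0.99. Cd40 fell from 652, 880 and 682 CPM to 33.0, 36.5 and 131 CPM (log2 fold change −3.47, SE 0.59, adjusted p = 0.000199), and the adhesion molecule gene Icam1 from 1288, 1552 and 1463 CPM to 240, 210 and 391 CPM (−2.36). The checkpoint gene Vsir (VISTA) rose from 9.28, 8.19 and 11.2 CPM to 27.3, 44.0 and 29.0 CPM (1.81). Of 17 MHC class II presentation genes 4 were lower (23.5%) and 1 higher, or 2 higher without defactinib replicate 3 or DMSO replicate 2 or 3. The class II transactivator gene Ciita fell from 196, 290 and 269 CPM to 41.9, 44.5 and 35.6 CPM (−2.63), while its target Cd74, the invariant chain, overlapped between the groups (11419, 14169 and 12936 against 10892, 13645 and 8753 CPM). Fcγ receptors, TREMs and their adaptors gave 2 lower of 22 (9.09%), 1 being Lilrb4a, an inhibitory receptor gene (307, 434 and 242 against 26.4, 16.5 and 18.6 CPM; −3.998). C-type lectin and scavenger receptors were lower in 4 of 28 (14.3%) and higher in 2 (1 without defactinib replicate 3), and complement genes lower in 3 of 19 (15.8%) and higher in 2 (4 without defactinib replicate 2, 1 without defactinib replicate 3), with C5ar1, the receptor for the fragment C5a, at 46.8, 40.8 and 36.2 against 5.09, 2.74 and 2.75 CPM (−3.54). Chemokine and G protein-coupled receptors were lower in 40 of 104 (38.5%) and higher in 12 (11.5%), the falls including Gprc5c (112, 122 and 123 against 6.23, 5.03 and 3.67 CPM; −4.58, not called by DESeq2), and cytokine receptors and the TNF receptor family in 21 of 63 (33.3%) and higher in 4, the falls including Il10ra (345, 349 and 315 against 18.9, 15.6 and 29.0 CPM; −3.99). Il6ra rose from 2.81, 2.87 and 4.04 CPM to 17.8, 19.6 and 21.2 CPM (2.59). Of 55 proteases and their inhibitors 11 were lower and 7 higher, with 10 higher when scaled by the library total and 13 with the GC and length correction.

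Genes of metabolism that LPS-activated macrophages are known to induce were among the falls. Nos2, the inducible nitric oxide synthase, was at 350, 386 and 281 CPM with DMSO and 1.30, 0.698 and 20.9 CPM with defactinib (log2 fold change −5.48, SE 1.42, adjusted p = 0.00422), and Acod1, which makes itaconate, at 5216, 4577 and 4755 against 177, 80.0 and 452 CPM (−4.36, SE 0.64, adjusted p = 5.22e-05). For both, defactinib replicate 3 was the highest of its group, still far below the DMSO libraries. They were among 4 lower of 22 genes of nitric oxide, arginine and itaconate metabolism (18.2%), near the 18.6% of all genes. Glycolysis and hypoxia genes were lower in 6 of 32 (18.8%), near the background, and 3 were lower and 3 higher under each of the 2 other scalings. The hexokinase gene Hk2 fell from 246, 222 and 234 CPM to 35.7, 28.1 and 40.3 CPM (−2.75), and the glycolytic gene Aldoa stood at 1356, 1323 and 1384 against 1697, 2027 and 1573 CPM. Cholesterol and fatty acid synthesis genes were lower in 9 of 35 (25.7%) and higher in 2, or 4 without DMSO replicate 3 or when scaled by the library total. Hmgcs1, an enzyme of cholesterol synthesis, fell from 194, 227 and 247 CPM to 26.0, 22.9 and 19.1 CPM (−3.30, SE 0.31, adjusted p = 6.55e-07), whereas the desaturase gene Scd2 rose from 146, 128 and 179 CPM to 445, 398 and 242 CPM (1.26). Of 24 LXR and PPAR targets 3 were higher and 2 lower, and without defactinib replicate 3 only 1 was higher. Prostaglandin and leukotriene genes were lower in 6 of 20 (30%). The cyclooxygenase gene Ptgs2 was lower in all defactinib libraries (752, 683 and 557 against 78.8, 22.7 and 216 CPM; −2.65), and Ptgir, the prostacyclin receptor gene, fell from 156, 138 and 179 CPM to 9.67, 11.7 and 12.9 CPM (−3.79, not called by DESeq2). Solute carriers gave 28 lower (13.9%) and 24 higher (11.9%) of 202, and autophagy genes 7 lower (18.9%) of 37. For the solute carriers the balance turned with scaling, to 15 lower and 36 higher by the library total and 17 lower and 32 higher with the GC and length correction.

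By the rule for leading genes, the largest rises and falls were taken among abundant genes outside the excluded lists, and 11 rises and 12 falls are described. The rises not described so far were Phlda1 (51.8, 32.5 and 42.8 against 403, 433 and 262 CPM; log2 fold change 3.11), the lymphoid and myeloid phosphatase gene Ptpn7 (20.9, 15.6 and 20.2 against 94.5, 102 and 96.1 CPM; 2.37) and the sialic acid receptor gene Siglec1 (9.30, 9.01 and 8.67 against 17.8, 16.5 and 98.9 CPM; 2.30). Siglec1 rested on defactinib replicate 3 and was not called without it. Among the falls, Fam53c went from 191, 190 and 186 CPM to 3.21, 3.34 and 5.22 CPM (−5.59, SE 0.85, adjusted p = 7.16e-05) and the large zinc finger gene Hivep3 from 305, 313 and 476 CPM to 11.6, 6.40 and 9.69 CPM (−5.31), neither of which DESeq2 called. Socs1, the suppressor of cytokine receptor signalling, dropped from 122, 95.3 and 96.5 CPM to 2.28, 4.43 and 4.16 CPM (−4.85), the endothelin gene Edn1 from 454, 324 and 416 CPM to 14.95, 5.87 and 15.5 CPM (−5.04), and the early activation marker Cd69 from 373, 309 and 230 CPM to 11.5, 8.04 and 12.4 CPM (−4.84, SE 0.20, adjusted p = 1.48e-10). Sertad1, Tal1, Tent5a and Usp42 changed by −5.25, −4.90, −4.78 and −4.72, and DESeq2 did not call Tal1 and Tent5a. The absence of overlap between the groups was part of the rule for these genes.

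**Figure D5:**
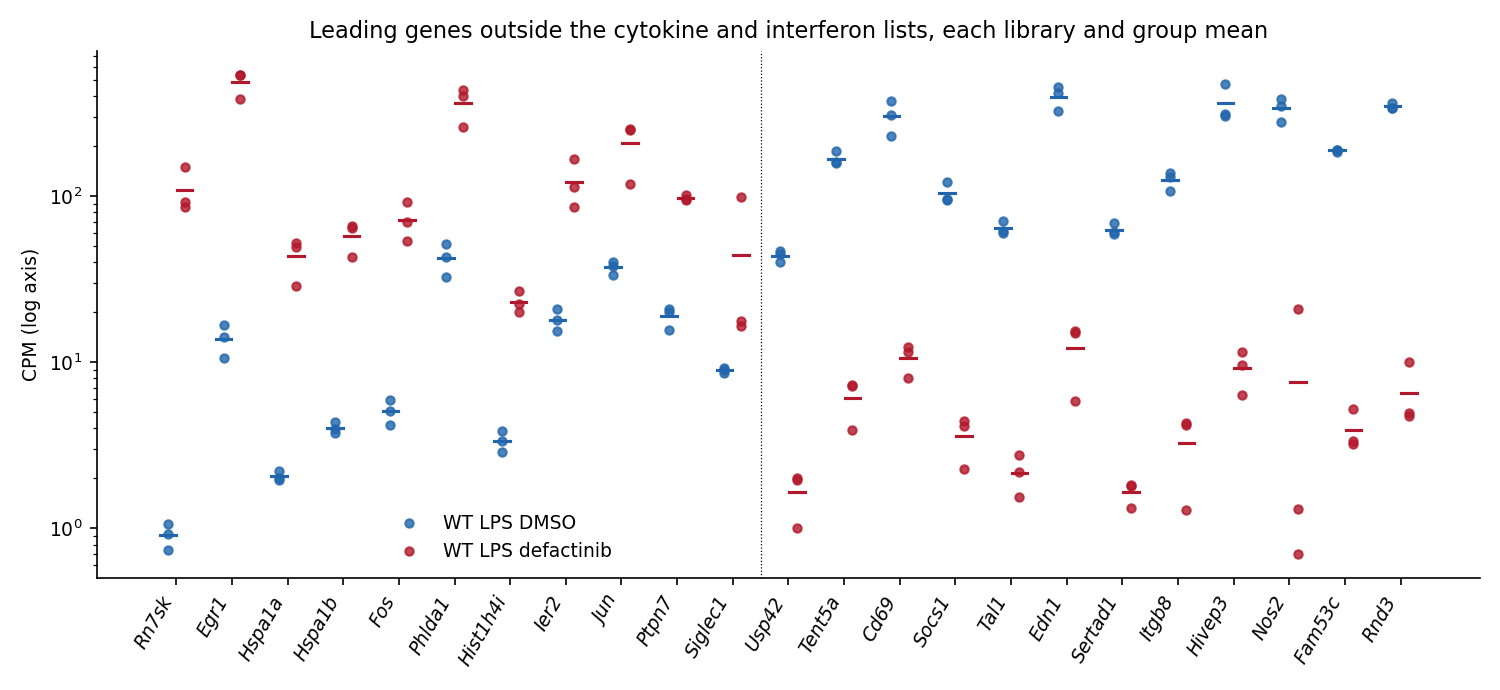
CPM on a log axis of 11 leading rises (left of the dotted line) and 12 leading falls (right) in the 3 WT LPS DMSO (blue) and 3 WT LPS defactinib (red) libraries, with bars at the group means. Genes were chosen for groups that do not overlap, and for Siglec1 and Nos2 a single defactinib library lies far from the rest.

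Gene structure was compared between the called sets. Genes that were higher had a median exonic length of 2990.5 bases, against 4175 for genes that were lower and 3404 for those called neither way, and 22.1% of them had a single exon, against 11.4% and 13.3%. Protein-coding genes made up 70.8%, 87.3% and 81.5% of these sets. The contrast between genes that were higher and those called neither way turned when no fold change threshold was set, at a median exonic length of 3279.5 against 3084 bases, 12.8% against 17.3% with a single exon and 84.1% against 74.8% protein-coding. Among noncoding classes, long intergenic RNAs were higher in 85 of 391 (21.7%) and lower in 59, and unannotated transcripts awaiting experimental checks (class TEC) higher in 97 of 345 (28.1%) and lower in 73. Processed pseudogenes were higher in 78 of 1061 (7.35%).

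The effect of defactinib in cells labelled IRF5 KO was set beside that in WT cells. In that genotype 144 of 15663 genes (0.919%) were called with defactinib over all 3 DMSO libraries, and the difference between the genotypes was called for 3568 genes (22.8%). Both counts hung on the divided DMSO group. Without its replicate 3, 233 genes were called in cells labelled IRF5 KO and 5067 for the difference. With replicate 3 alone in that group, whose spread is then assumed to be that of the other groups, 3212 genes were called in cells labelled IRF5 KO, 773 higher and 2439 lower, and 3193 for the difference. Which of the replicates represents that condition, and whether their labels are right, was not tested. These libraries entered the WT comparison through the shared spread and the filter on low counts, which kept 16037 genes without replicate 3 and 16707 without replicates 1 and 2. It then gave 4920 calls without replicate 3 and 5047 without replicates 1 and 2.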

How the data were processed

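Whole cells were profiled by RNA-seq in 6 groups of 3 libraries, and the 6 libraries of LPS-stimulated WT cells given DMSO or defactinib were compared. The authors aligned 150-base read pairs to mm10 with STAR and counted uniquely mapped pairs per gene, by strand, with featureCounts 1.6.3, and the counts were deposited raw, as 1 table of 18 columns. They were not pooled. The study describes its replicates in general as biological, such as mice or cells, but the labels do not say whether these libraries came from separate mice or cultures, and p-values measure the spread between them. Intervals and floors cover counting error only, since the reads carry no molecular identifiers.

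Here, counts were tested with edgeR 4.0.16 (R 4.3.3, limma 3.58.1) by the two-sided quasi-likelihood F test with TMM scaling, robust dispersions and 1 mean per group over all 18 libraries, after edgeR's filterByExpr. Adjusted p-values are Benjamini-Hochberg over the 15663 genes tested, and a gene was called at an adjusted p below 0.05 and a fold change above 2. CPM are TMM-scaled. Gene symbols and models were those of GENCODE M21: 50376 of 50600 identifiers had a symbol, and 46843 had the same position in it. The test was checked on simulated counts with known changes. Members and gene lists were chosen with earlier results of these data known, and no list was tested as a set.

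Genes named were Irf5, Ptk2 and Ptk2b, for each list the member with the highest RPKM and its largest rise and fall (no overlap, mean log2 CPM from 1 upwards), the 12 largest rises and falls outside the cytokine and interferon lists (no overlap, mean log2 CPM from 3 upwards, placeholder symbols left out), and Gm26917, Gm42418, Malat1, Neat1 and Rn7sk. Some genes and 1 list that the rule covers are not reported here. Other genes named as examples within a list were chosen after their values were seen.

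Same-numbered libraries of the compared groups did not deviate together (r = 0.033, −0.0265 and −0.105), so replicate numbers were not taken to pair them. Alternatives were DESeq2 1.42.0 size factors and test, library size alone, a GC and length correction, other filters and thresholds, limma-voom, a replicate block, fewer libraries in the fit, and leaving out each library. A library size without abundant noncoding RNAs, and leaving out replicates 1 and 2 labelled IRF5 KO LPS DMSO, were added after the data were seen.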

Additional observations from a re-analysis of the deposited data

Results flagged for a closer look

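For 17 of 23 leading genes the effect of defactinib in WT cells differed from that in cells labelled IRF5 KO by a test of the difference itself, edgeR's interaction term, at an adjusted p below 0.05 and a difference above 1 on the log2 scale. Over all tested genes 3568 of 15663 (22.8%) were called for this difference. The leading genes were chosen for large WT fold changes, which form part of the difference, so a large difference was partly built in. Each value is the WT minus the IRF5 KO log2 fold change over all 3 libraries of each group. All rest on the DMSO group of the cells labelled IRF5 KO, whose replicates 1 and 2 stand apart from replicate 3.

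Among the rises the difference was 7.04 for Rn7sk, 4.71 for Egr1, 4.13 for Hspa1a, 3.39 for Hspa1b, 3.64 for Fos, 2.91 for Hist1h4i and 2.64 for Ier2. With replicates 1 and 2 left out, these became 0.96, −1.68, −0.20, −0.30, 0.24, 0.87 and −0.21, of which only that of Egr1 was called, in the opposite direction. Ptpn7, with a difference of 3.63, kept its call at 4.53.

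Among the falls the difference was −6.02 for Rnd3, −3.71 for Fam53c, −4.35 for Itgb8, −4.51 for Sertad1, −4.63 for Edn1, −3.85 for Tal1, −4.93 for Cd69, −3.0 for Tent5a and −4.19 for Usp42. All 9 were still called with replicates 1 and 2 left out, at −1.63 (Tent5a) to −4.99 (Rnd3), and without replicate 3 in their place, at −4.91 (Cd69) to −7.05 (Rnd3). What set these replicates apart was not tested.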

How the results depend on the processing

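The counts of called genes stayed within 1.5 times those reported under most settings, and no named gene that was called changed direction. A filter of 5 CPM in 3 libraries, which tests fewer genes, gave 2833 called, 777 of them higher. Without a fold change threshold 8922 genes were called, 4444 higher and 4478 lower, and with the threshold inside the test (glmTreat) 2412, 641 higher and 1771 lower. For the difference between the genotypes these 2 settings gave 5789 and 1357. Library size without abundant noncoding RNAs, chosen after the data were seen, gave 2661 higher, and the cause was not tested. Leaving out 1 library gave 4213 to 4920 called, 1562 to 1829 higher, 2651 to 3111 lower and 3235 to 5067 for the difference, each highest without replicate 3 labelled IRF5 KO LPS DMSO except the count lower.

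With the replicate number as a block 4569 genes were called, 1601 higher and 2968 lower, and 3618 for the difference. The numbers do not pair the libraries, not every library deviated most like its own number, and the block changed no call of a named gene.

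Of 108 called named genes 30 were lost under at least 1 of 32 settings, 20 under glmTreat, 10 under DESeq2 and 9 without 1 library, some under several of these. Depth limited the genes that had under 10 pairs with DMSO, most Hist and snRNA genes among them, whose fold changes depend on the prior count.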
